A study of Drosophila melanogaster with 78 samples.

Results

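Circular RNAs form when a downstream splice donor joins an upstream splice acceptor, a reaction called backsplicing, so that 1 or more exons close into a covalent ring without free ends. Such a ring competes with linear splicing of the same pre-mRNA, and because exonucleases cannot attack it, it can outlast the mRNA, above all in neurons that no longer divide. Most circRNAs are minor products of their host gene. The 113 circRNAs described here are those for which reads of the ring outnumbered reads of the linear splice in control brain: over the 9 wDah brain libraries, their circular reads summed to at least 50 and exceeded their linear reads. Circular reads span the backsplice junction, and linear reads are spliced at the same positions to the neighbouring exons. Of the 1194 circRNAs in the count table, 113 (9.46%) met this rule, 658 had at least 50 circular reads without exceeding their linear reads, and 423 had fewer than 50. The members were thus chosen by their circular and linear reads in wDah brain, and every value from those libraries is a description and no test.

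The libraries were made from total RNA after removal of ribosomal RNA. They cover 4 tissues: brain, thorax without gut, gut with malpighian tubules, and fat body, which here was the abdomen without gut and ovaries. The flies were once-mated females at 10, 30 and 50 days of age, of 2 genotypes: the outbred control strain white Dahomey (wDah), which carries Wolbachia, and dilp 2-3,5 mutants backcrossed into it, which lack the genes for the insulin-like peptides 2, 3 and 5. Each genotype, tissue and age had 3 libraries, 72 in all, and 6 polysome libraries of fat bodies at day 10, 3 per genotype, were set beside total RNA. The day 10 samples were generated independently of the others, so that age and this separate generation cannot be told apart in comparisons with day 10. The methods of the study call the replicates biological without naming the cultures, and the labels only number them. The p-values therefore measure the spread between these libraries.

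Brain libraries held from 16637 to 38812 circular reads, thorax libraries from 2016 to 8016, fat body libraries from 1954 to 8344 and gut libraries from 503 to 2871. In the pooled FPKM table, 6 of 6 listed neuronal markers, 6 of 6 muscle markers of the thorax and 5 of 5 digestive markers were higher in every group of their own tissue than in any group of another, as were 2 of 3 glial markers in brain. No such separation was found for the 6 listed markers of fat body, with the yolk protein gene Yp1 listed at 0 in at least 1 fat body group and reaching 29708 FPKM in another. Several libraries stood apart in the number of members with at least 1 circular read. In gut, 2 dilp 2-3,5 libraries (replicate 3 of day 30 and replicate 2 of day 50) detected 74 and 84 members, against 26 to 45 in the other 16. In fat body, 4 wDah libraries (replicate 1 of day 30 and all replicates of day 50) detected 60 to 80, against 39 to 51 in the other 5 of wDah. The 9 dilp 2-3,5 fat body libraries detected 37 to 57, so the lowest of the 4 was close to this range. The 6 listed neuronal markers summed to 12.9 and 14.8 FPKM in dilp 2-3,5 gut at days 30 and 50, and to 5.93 and 6.39 FPKM in wDah gut at the same ages. In wDah fat body the sums were 15.6, 8.30 and 8.67 FPKM at days 10, 30 and 50. In dilp 2-3,5 fat body they ran from 4.96 to 31.0 FPKM. Syt1 alone gave 13.2 and 29.3 FPKM at day 10 in wDah and dilp 2-3,5 fat body. The markers elav, brp and VGlut were higher in wDah at days 30 and 50 than in any other fat body group. This was not so for nSyb, Syt1 and VAChT. None of the 6 markers was at 0 in any group. The part of these markers in the results below was not tested.

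All 113 backsplices had the GT and AG dinucleotides of a regular intron on either side, when read from the RefSeq genome of the same build as the files (BDGP6). So did 654 of the 658 other circRNAs with at least 50 circular reads (99.39%). The junctions of 10 members follow, from the 5′ to the 3′ side: the 15 lower-case bases close the ring at the splice donor, and the 15 capitals are the first bases after the splice acceptor. Such a run joins the ends in the order of the ring. Whether the same bases also occur in a linear transcript was not tested. They are shown for the most abundant members for which a sequence is printed, for the X-linked CG44422 with its high ratio, and for the 4 members that differed most between genotypes in brain (btsz, Nos, beat-Vc and dpr6).
CaMKI: catcgtgatcttaagGTTCAGTGCAAATCA
Dbp80: cattcgaatacacaaGTTCTGTGTTTATCC
scro: accatctccgtttcgCGATAAAAGCCTACT
Ca-alpha1D: gcgatgagatcacagGGCGATAAGTACTGC
CG17816: agaaggtccttaaaaCTACTCTACATGAGT
CG44422: gcgcagttctcaactAAATTTGCATAGAAA
Nos: attgcaggactccagGGCTGTGAAATTTAC
btsz: tgccactagaatgatGTATCAATTTGCCCA
beat-Vc: atatgacagtcggagGAATGGCTCCTGTGC
dpr6: tgattgtgatgagcgGCCGCATTTCGTGTA

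The CaMKI ring lies at chr4:449924-450509 on the plus strand and joins 3 coding exons, the first of them exon 3 of its transcript, into 259 bases. The Dbp80 ring at chr3L:27331994-27332346 (plus strand) holds 2 exons with the start codon, and the scro ring at chr3L:24725824-24726292 (plus strand) is a single exon, again with the start codon. The Ca-alpha1D ring at chr2L:16174416-16175007 (plus strand) joins 2 coding exons of 260 bases in sum. The CG17816 ring at chr3R:7864261-7865761 (minus strand) joins 5 coding exons. The CG44422 ring spans chrX:11222019-11222254 (minus strand), where the files place both ends in exons. The Nos ring at chr2L:10812287-10813445 (minus strand) joins 2 exons, and the btsz ring at chr3R:14859309-14860067 (minus strand) is exon 2 of its transcript and holds the start codon. The beat-Vc ring at chr3R:12752418-12754790 (minus strand) joins 2 exons, and the dpr6 ring at chr3L:10003584-10004101 (plus strand) is exon 2, with the start codon.

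In the median, the members were shorter rings between longer introns than the 658 other circRNAs of at least 50 circular reads. They were also more often rings of 1 or 2 exons. Both ends could be placed in exons of the same transcript for 99 members (87.6%) and 622 others (94.5%). Among these, 26 members (26.3%) were a single exon and 51 (51.5%) joined 2 exons, against 94 (15.1%) and 251 (40.4%) of the others. The median exonic length was 512 bases in members and 614.5 bases in the others. The median upstream intron had 5623 bases against 4308, and the median downstream intron 4894 against 3012. Both flanking introns were over 1000 bases long in 80.8% of members and 71.5% of others. A start codon lay within 35 members (35.4%) and 205 others (33.0%). Flanking repeats that pair with each other are a known aid to backsplicing in mammals. A run of at least 15 bases in 1 flank of 500 bases that matched the reverse complement of the other was present for 7 members (6.20%) and 12 others (1.82%). The longest runs in members had 20 bases at laccase2, a cuticle oxidase gene, and 19 bases at CaMKI and at Lin29. These shares are descriptions, because abundance differed between the sets as well.

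The 113 members came from 105 named host genes, with 2 members outside annotated genes. Ion channels and receptors, fixed as a list, gave 8 members, among them the potassium channel gene Sh and the acetylcholine receptor subunit gene nAChRalpha6, and 56 other circRNAs of at least 50 reads. Synaptic and adhesion genes gave 10 members and 59 others, RNA binding genes 5 and 19, transcription factors 4 and 24, and kinases, phosphatases and second messengers 2 and 32. The remaining 84 members were in none of these lists. The lists do not cover every gene of a class, as the homeobox gene scro and the Wnt receptor gene fz2 were among these 84. In 50 cases the member was the only listed circRNA of its host. The same host genes gave 129 further circRNAs, of which 80 had at least 50 circular reads in wDah brain, with a median ratio of circular to linear reads of 0.302 and a range from 0.0282 to 0.952. By the rule, none of these outnumbered its linear reads. Several members came from CG17684, with 5, and from scro and pnt, with 2 each. Of all members, 29 shared a splice site with another listed circRNA, so that part of their linear reads is the same.

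**Figure D1:**
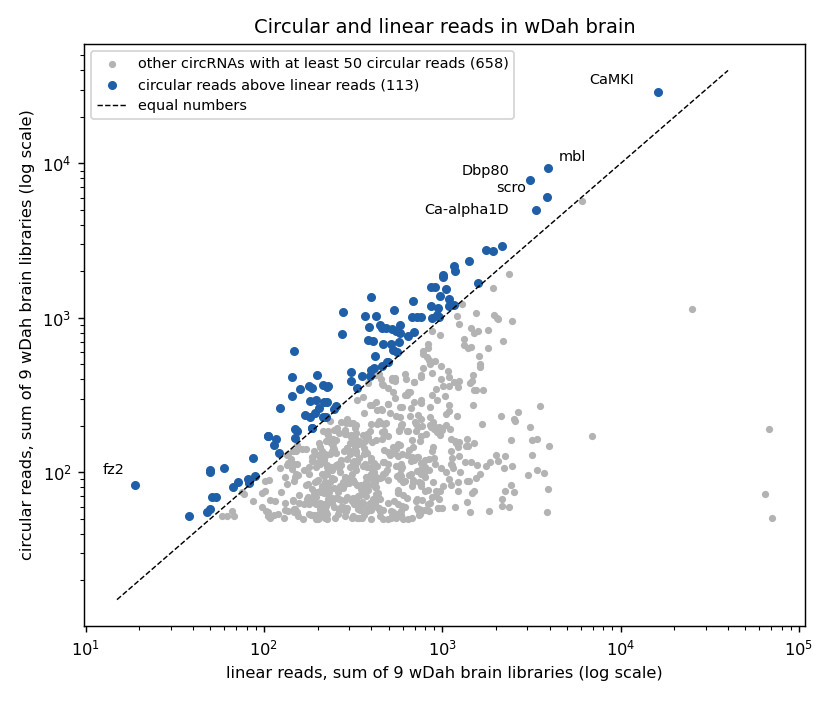
Circular reads (vertical axis) against linear reads (horizontal axis), both summed over the 9 wDah brain libraries on log scales, for circRNAs with at least 50 circular reads. The 113 members, in blue, lie above the dashed line of equal numbers by the rule that chose them, and CaMKI at 29179 circular reads lies far beyond the median member at 515.

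The members' reads were dominated by a few rings. In wDah brain the 113 members held 132179 circular reads, of which the top 5 held 43.4% and the top 15 held 59.9%. The kinase gene CaMKI, whose product is activated by calcium and calmodulin, had 29179 circular and 16129 linear reads. The splicing regulator gene mbl (muscleblind) followed with 9343 circular and 3890 linear reads. Dbp80, a DEAD-box RNA helicase gene, had 7783 circular and 3109 linear reads. The homeobox gene scro had 6058 circular and 3867 linear reads, and Ca-alpha1D, which encodes the L-type calcium channel, had 4976 and 3352. None of these 5 hosts produced a rival ring of like abundance: CaMKI had 1 other listed circRNA with 1149 reads, Dbp80 had 2 with 1193 reads in sum and scro had 3 with 1558, while mbl and Ca-alpha1D had none. The next 10 were uex, a magnesium transporter gene, at 2912 circular reads, the small GTPase gene Rgk1 at 2740, CG17684 at 2717, CG17816 at 2342, the semaphorin gene Sema-2b at 2164, CG34354 at 2014, the synaptic scaffold gene dlg1 at 1890, Wbp2 at 1842, the memory gene rad at 1678 and the polarity gene sdt at 1596.

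The highest ratios belonged to other members than the highest counts. The ratio of circular to linear reads over the 9 wDah brain libraries had a median of 1.40 and quartiles of 1.17 and 1.81. It exceeded 2 in 19 members and 3 in 4, and its lowest value was 1.02. How the linear reads of both ends of a circRNA were combined into 1 count is not given in the sources used here, and membership at ratios near 1 depends on it. The highest ratio, 4.37, belonged to fz2, a Wnt receptor gene, but rested on 83 circular and 19 linear reads. An unannotated ring on arm 3L followed with 613 and 147 reads (ratio 4.17), then CG44422 with 1086 and 277 (3.92), CG43729 with 1367 and 398 (3.43) and CG13743 with 415 and 144 (2.88). At the lower edge of the ratio, CCKLR-17D1 (85 against 83 reads), hbn (228 against 222) and spir (1206 against 1167) were just inside, and 5-HT1B (75 against 75), Pvf3 (425 against 427) and CG31688 (381 against 383) were just outside. At the edge of the read minimum, Eip74EF with 52, rst with 55 and Pld with 58 circular reads were just inside. RunxB with 48, CG42284 with 46 and Scr with 46 circular reads were just outside, although each exceeded its linear reads.

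The excess was carried over to the brains of dilp 2-3,5 mutants, which the rule did not use. In their 9 brain libraries, 95 of the 113 members had more circular than linear reads in sum, and the median ratio was 1.3. Among other circRNAs with at least 10 circular reads there, 9 of 1022 (0.881%) had such an excess. By single libraries, between 50 and 95 of the 113 members exceeded their linear reads in dilp 2-3,5 brain, and between 57 and 108 did so in wDah brain. The smallest count in each genotype came from a library of day 10. An excess in 9 of 9 dilp 2-3,5 brain libraries was found for 38 members, and 32 members had it in all 18 brain libraries. In mbl the ratio per library ran from 2.02 to 2.77 with a median of 2.34 in dilp 2-3,5 brain, and from 1.67 to 2.76 with the same median in wDah brain, so the genotypes overlapped almost wholly. In Dbp80 it ran from 2.01 to 2.58 in dilp 2-3,5 and from 2.28 to 2.78 in wDah brain. Of the 18 members without an excess in the mutants, 5 had a ratio under 0.8: beat-Vc, dpr6, CG14082, nuf and 1 of the 2 pnt rings.

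Whether a ring accompanied its linear RNA across tissues was described in the libraries of dilp 2-3,5 mutants, since wDah brain had served the choice. The ratio of circular to linear reads was higher in brain than in thorax for 43 of 113 members and lower for 0, by edgeR's quasi-likelihood test over 18 libraries at an adjusted p under 0.05. Among all 1180 circRNAs tested, 32.1% were higher and 4.83% lower. Against gut, 38 of 113 members were higher and 0 lower, where 28.8% of 1158 circRNAs were higher and 0.777% lower. Leaving out the 2 gut libraries that stood apart gave 42. Against fat body, 26 members were higher and 0 lower, where 18.2% of 1165 circRNAs were higher and 6.52% lower. The filter of 10 circular and 10 linear reads was met by all 113 members through their reads in brain, and 91, 46 and 33 of them had 10 circular reads in dilp 2-3,5 thorax, gut and fat body. The members had also been chosen for a high ratio in brains of the other genotype. These counts are therefore a description of the members and no sign that they differ from other circRNAs. The same holds for the p-values of single members named below for these comparisons between tissues. With DESeq2 the counts were 35, 36 and 25 for thorax, gut and fat body, all higher in brain. In either direction, 51, 43 and 36 members had an unadjusted p under 0.05 in edgeR, as did 531 of 1180, 427 of 1158 and 385 of 1165 circRNAs in all.

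The rings with the smallest p against thorax belonged to genes with linear reads there, which a small p in this ratio test requires. The scaffold gene dlg1 had a ratio per library between 1.43 and 2.28 in dilp 2-3,5 brain but between 0.09 and 0.35 in thorax, with 86 circular against 374 linear reads in sum, and no library of brain overlapped any of thorax. Its difference was 3.05 ± 0.23 on the log2 scale (SE, adjusted p = 6.84e-20, edgeR). In fat body dlg1 kept 247 linear reads but 7 circular reads over 9 libraries (difference 5.88 ± 0.37, adjusted p = 1.09e-17, edgeR), and the difference of dlg1 was 7.14 without replicate 3 of day 50 in fat body. CG43729, the gene with the fourth highest ratio in wDah brain, had between 103 and 240 circular reads per library in dilp 2-3,5 brain and between 7 and 28 in thorax. Its linear reads overlapped, at 35 to 93 per library in brain and 40 to 89 in thorax. The difference in ratio was 3.59 ± 0.23 on the log2 scale (adjusted p = 9.24e-24, edgeR). For lt, a gene of vesicle traffic to the lysosome, it was 3.14 ± 0.29 (adjusted p = 1.79e-15, edgeR).

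The Sec16 ring, of a gene of the sites where vesicles leave the endoplasmic reticulum, was not read in dilp 2-3,5 fat body. It had 587 circular and 698 linear reads in dilp 2-3,5 brain, 0 circular and 187 linear reads in fat body, and 5 circular and 237 linear reads in gut. All 5 of the gut reads were in the 2 libraries that stood apart, at 2 reads in replicate 3 of day 30 and 3 reads in replicate 2 of day 50. Set against 3 circular reads over the 9 fat body libraries, the limit that a count of 0 allows, the ratio was at least 52.4-fold higher in brain, a bound that covers counting error only (adjusted p = 3.04e-12, edgeR). In Ctr1A, a copper transporter gene, 3 of 103 reads in dilp 2-3,5 fat body were circular (2.91%, exact Clopper-Pearson interval at 95% from 0.605% to 8.28%), against 51.2% in brain (adjusted p = 2.12e-09, edgeR). The fitted log2 difference of Ctr1A was 4.51, and 5.51 without replicate 3 of day 50 in fat body. Parp, the gene for poly(ADP-ribose) polymerase, had 832 circular and 498 linear reads in brain but 6 and 141 in gut, and the difference was 5.05 ± 0.45 (adjusted p = 1.90e-14, edgeR). For Parp it was 6.33 without replicate 3 of day 30 in gut. The ratio of Wbp2 was higher in brain than in gut by 2.36 ± 0.22 (adjusted p = 7.11e-14, edgeR), at 179 circular and 490 linear reads in gut, yet in fat body its 801 circular reads exceeded 453 linear reads. In all, 52 members (46%) were called in at least 1 of the 3 comparisons and 20 (17.7%) in each of them, where 42.7% and 13.3% of the 1149 circRNAs tested in all 3 were. The 20 included CaMKI, Dbp80, the splicing factor gene A2bp1, 4E-T, which binds the cap-binding protein, the actin nucleator gene spir, and the cell adhesion gene rst.

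Some members had an excess outside brain as well. The mbl ring exceeded its linear reads in every tissue of dilp 2-3,5 flies, with 6026 circular and 2410 linear reads in thorax, 1253 and 654 in gut, and 1002 and 408 in fat body. In wDah the sums were 5193 and 2066, 1309 and 705, and 1466 and 558. Among libraries of wDah thorax, its ratio ran from 2.25 to 2.69, within the range of brain. The potassium channel gene Sh had 391 circular and 243 linear reads in dilp 2-3,5 thorax and 204 and 136 in wDah thorax. The CaMKI ring, by contrast, exceeded its linear reads in all 18 brain libraries, at ratios from 1.03 to 2.43, but in dilp 2-3,5 fat body it had 3661 circular and 5576 linear reads, and in dilp 2-3,5 thorax 1929 and 2804. The log2 difference of CaMKI from brain was 1.18 ± 0.15 for thorax (adjusted p = 3.93e-10) and 1.32 ± 0.19 for fat body (adjusted p = 4.77e-07, both edgeR). Of the ion channels and receptors, 3 of 8 were higher in brain than in thorax and 0 in the comparisons with gut and fat body. Of synaptic and adhesion genes 2 of 10 were higher in each comparison, of RNA binding genes 2, 1 and 1 of 5, and of transcription factors 0, 2 and 0 of 4 against thorax, gut and fat body. Both members of the kinase list, CaMKI and Pkn, were higher against thorax and gut, and 1 of them against fat body. No listed member was lower. The lists are small, and over all circRNAs tested the shares higher in brain were 32.1%, 28.8% and 18.2%. The lists and members were chosen with results of these data known.

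**Figure D2:**
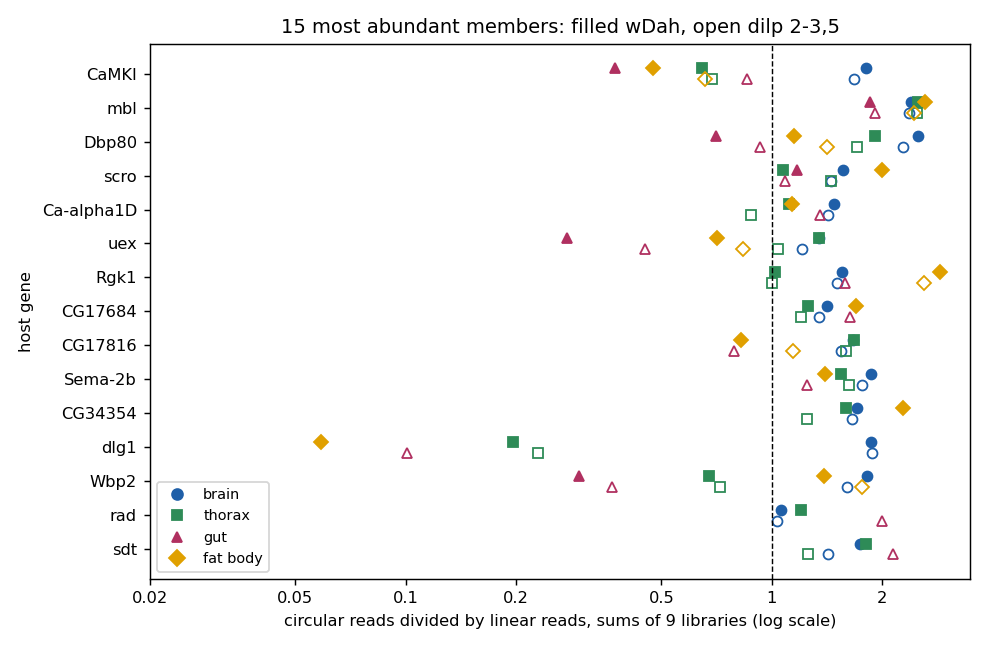
Ratio of circular to linear reads (horizontal axis, log scale, each point the sums of 9 libraries) for the 15 members with most circular reads in wDah brain, by tissue and genotype (filled, wDah; open, dilp 2-3,5), for groups with at least 10 circular reads. The dashed line marks equal numbers. The mbl points stay between 1.86 and 2.63 in all tissues, whereas the dlg1 points fall to 0.23 or less outside brain.

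Counted by sums over 9 libraries, fewer members had reads outside brain and fewer of these had an excess. In wDah thorax 83 members had at least 10 circular reads, and 41 of them exceeded their linear reads, against 6 of 446 other circRNAs with as many reads. In dilp 2-3,5 thorax the excess was found for 37 of 91 members and 8 of 534 others. In fat body it was found for 20 of 51 members in wDah and 16 of 33 in dilp 2-3,5, against 8 of 345 and 13 of 341 others, and without the 4 wDah libraries that stood apart for 6 of 28. In gut it was found for 4 of 26 members in wDah and 19 of 46 in dilp 2-3,5, against 2 of 200 and 3 of 218 others. Without the 2 gut libraries that stood apart, the last count was 4 of 24, so the count without them was that of wDah. In bulk tissue, fewer cells of a type and less RNA per cell cannot be told apart.

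The share of all circular reads that the members took was highest in brain for dilp 2-3,5, apart from 1 gut library. Since members were chosen by circular reads in brains of the other genotype, this order is a description. In wDah brain the share per library ran from 43.4% to 55.7%, a value that the rule had used, and in dilp 2-3,5 brain from 45.9% to 55.2%. It ran from 34.5% to 40.8% in dilp 2-3,5 thorax, from 29.5% to 32.4% in fat body and from 25.7% to 47.0% in gut, where the 2 libraries that stood apart had the highest shares, 38.4% and 47.0%. Of linear reads the members held 4.92% to 7.09% in dilp 2-3,5 brain and 0.640% to 1.24% in the other tissues of these flies. Summed over the members, circular reads per linear read ran from 1.20 to 1.81 in dilp 2-3,5 brain, against 0.067 to 0.117 over all other circRNAs in the same libraries. Over the 658 others with at least 50 circular reads in wDah brain, the range in these libraries was 0.118 to 0.206.

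**Figure D3:**
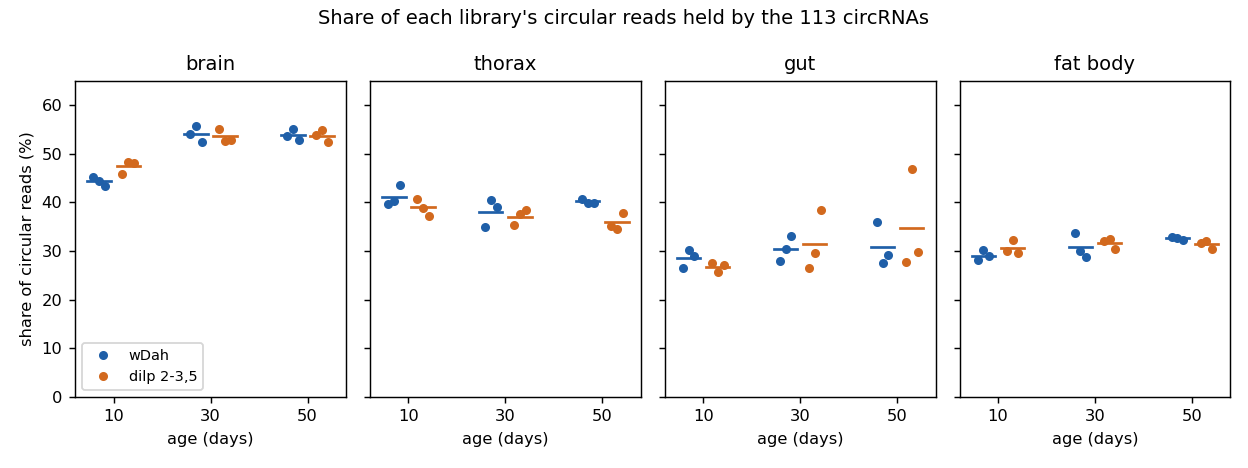
Share of each library's circular reads that the 113 members held (vertical axis, %), by age, tissue and genotype, with a point per library and a bar at the mean of 3 libraries. In dilp 2-3,5 the brain libraries, from 45.9%, lie above thorax, up to 40.8%, while in wDah the lowest brain library at 43.4% meets the highest thorax library at 43.5%, and 2 dilp 2-3,5 gut libraries stand out at 38.4% and 47.0%.

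Age was compared in dilp 2-3,5 brain. From day 30 to day 50, a comparison without the independently generated day 10, 0 of 112 members tested changed in the ratio of circular to linear reads by edgeR, as did 0 of all 1075 circRNAs (0%). At an unadjusted p under 0.05 in edgeR there were 9 of 112 members and 103 of all 1075 circRNAs, and DESeq2 also called 0. The median difference was 0.13 on the log2 scale in members and 0.20 over all tested. A value above 0 was found for 78 members (69.6%) and for 66.5% of all tested. From day 10 to day 50, 9 of 113 members rose and 0 fell, where 11.1% of 1110 circRNAs rose and 0.721% fell. The median difference of the members was 0.30, under the 0.51 of all circRNAs tested. Leaving out 1 library at a time gave 4 to 14 members: without replicate 1 of day 10 there were 14, without replicate 3 of day 50 there were 4 and without replicate 1 of day 50 there were 5. DESeq2 called 4. The 9 members were CaMKI, the endoplasmic calcium sensor gene Stim, the small nucleolar RNA host gene Uhg3, the signalling inhibitor gene Dad, the serotonin receptor gene 5-HT1A, CG44422, CG32791, Ctr1A and fz2. These 9 are all that were called, and those beyond the first 3 by p fall outside the naming rule.

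Stim changed most of the named 3. In dilp 2-3,5 brain its circular reads were 12, 12 and 16 at day 10 and 58, 79 and 98 at day 50, while its linear reads went from 58, 67 and 63 to 35, 18 and 33. The groups did not overlap in either count. The difference was 3.68 ± 0.46 on the log2 scale (adjusted p = 1.78e-05, edgeR). At day 30, with 28, 60 and 83 circular and 21, 38 and 22 linear reads, Stim was already near its value at day 50. In dilp 2-3,5 thorax the pooled ratio of Stim also stood lower at day 10, at 0.15, than at day 30 (0.54) or day 50 (0.34). The Uhg3 ring, a single exon of 60 bases, had 11, 15 and 25 circular reads at day 10 and 114, 81 and 84 at day 50 in dilp 2-3,5 brain, with linear reads of 37, 40 and 51 and of 79, 45 and 56. Its difference was 2.00 ± 0.39 (adjusted p = 0.00212, edgeR).

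The CaMKI ring had more circular and more linear reads at day 50 than at day 10. Brains of dilp 2-3,5 flies gave 1748, 1359 and 1357 circular reads at day 10. These became 2325, 4055 and 3843 by day 30 and 5498, 4205 and 4269 by day 50. Linear reads were 1320, 1292 and 1322 at day 10 and 2719, 1727 and 2335 at day 50. All libraries of day 50 were above all of day 10 in both counts. The ratio was 1.13 ± 0.17 at day 10, 1.67 ± 0.25 at day 30 and 2.10 ± 0.31 at day 50 (SD, n = 3), and the libraries of days 30 and 50 overlapped. The log2 difference between days 50 and 10 was 0.88 ± 0.17 (SE, adjusted p = 0.00189, edgeR), and DESeq2 gave an adjusted p of 0.154. In wDah brain the ratio was 1.11 ± 0.025, 1.80 ± 0.16 and 2.2 ± 0.11 at the 3 ages (SD, n = 3). The host transcripts stood at 117, 382 and 397 FPKM in wDah brain and at 145, 397 and 405 FPKM in dilp 2-3,5 brain at these ages, as pooled values without replicate error. Made from total RNA, the FPKM values of host genes here and below can include reads within the exons of a ring. The CaMKI ring alone made up 9.08% of the members' circular reads at day 10 in dilp 2-3,5 brain and 25.8% at day 50, as means of 3 libraries, and 9.78% and 29.7% in wDah brain.

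**Figure D4:**
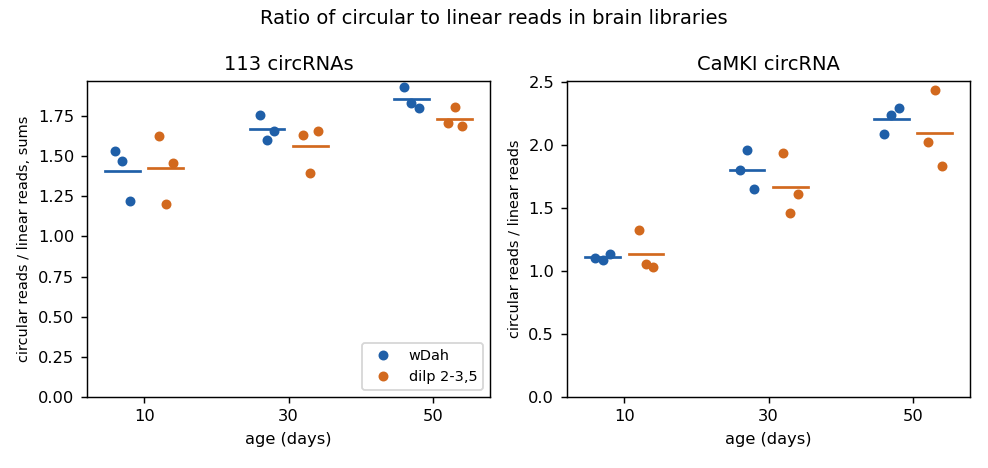
Circular reads divided by linear reads in each brain library, summed over the 113 members (left) and for the CaMKI ring (right), against age in days, with a point per library and a bar at the mean of 3 libraries. Between days 10 and 50 the mean CaMKI ratio goes from 1.11 to 2.2 for wDah, and dilp 2-3,5 goes from 1.13 to 2.10, with day 10 generated independently.

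In wDah brain, as a description, 83 of 113 members (73.5%) had a higher pooled ratio at day 50 than at day 10, with a median difference of 0.40 on the log2 scale. Of the 658 other circRNAs with at least 50 reads, 657 had a value. Among these 80.8% were higher at day 50, and the median was 0.75. Between days 30 and 50 the medians were 0.10 in members and 0.19 in the others. Most members had their excess at the earliest age as well: in wDah brain, 82 of the 111 members with at least 10 circular reads exceeded their linear reads at day 10, 102 of 112 at day 30 and 109 of 112 at day 50. The uex ring went the other way. In wDah brain its pooled ratio was 1.92, 1.0 and 1.06 at the 3 ages, and in dilp 2-3,5 brain it was 1.62, 0.93 and 1.03. In wDah thorax it also had its highest pooled ratio at day 10, at 1.77 against 1.0 and 1.13.

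The genotypes differed in few members in brain, and these values include the libraries that chose the members. Circular reads per 1000 circular and linear reads, averaged over 9 libraries, differed at least 2-fold between genotypes for 8 members (7.08%), 4 higher and 4 lower in dilp 2-3,5. Of the 658 others, 14 differed so, 10 higher and 4 lower (2.13% in all). Of all 1160 circRNAs with 10 circular and 10 linear reads, all 9 mutant libraries were above all 9 wDah libraries for 0.862%, of which 1 was a member, and below them for 0.259%, of which 2 were members. These 3 members were Nos, beat-Vc and dpr6. They, btsz and the others named in this comparison were chosen after their values were seen.

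The btsz ring, of a synaptotagmin-like gene, and the Nos ring, of the gene for nitric oxide synthase, were higher in the mutants. In wDah brain btsz had 170, 63 and 59 circular reads at day 10, but 15, 8 and 8 at day 30 and 11, 11 and 10 at day 50. In dilp 2-3,5 brain it had 510, 451 and 330 at day 10, 39, 211 and 186 at day 30, and 160, 200 and 248 at day 50. The genotypes did not overlap at any age, and the mean level was 6.93-fold higher in the mutants over all ages. The linear reads of btsz were 3.77-fold higher, so that both kinds of RNA moved, the circular one further. In wDah brain the Nos ring had 144, 253 and 113 circular reads at day 10, while days 30 and 50 gave 58, 28 and 40 and 19, 37 and 31. It had 406, 346 and 376, then 180, 535 and 350, then 341, 256 and 258 in dilp 2-3,5 brain. Nos was thus higher in the mutants at every age, 4.55-fold for circular and 3.19-fold for linear reads. The host transcripts of Nos were at 15.1, 11.95 and 10.1 FPKM in wDah brain at the 3 ages and at 19.6, 26.3 and 25.6 FPKM in dilp 2-3,5 brain. Ccn, of an extracellular matrix gene, was 2.37-fold higher and fas 2.39-fold higher in circular reads, and 1.97-fold and 1.56-fold higher in linear reads.

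The beat-Vc and dpr6 rings, of cell surface proteins of the immunoglobulin superfamily that neurons use to recognise partners, were lower in the mutants. In wDah brain beat-Vc had 56, 29 and 26 circular reads at day 10, 69, 29 and 104 at day 30, and 40, 50 and 46 at day 50. In dilp 2-3,5 brain the counts were 8, 2 and 5, then 1, 9 and 0, then 3, 3 and 3. All 9 mutant libraries lay below all 9 control libraries, and the mean level stood at 0.0689 of that in wDah. Linear reads stood at 0.449 of wDah, so the ratio over all ages was 1.47 in wDah and 0.23 in dilp 2-3,5. The host transcripts of beat-Vc were at 7.65, 17.9 and 12.8 FPKM in wDah and at 7.41, 11.3 and 8.86 FPKM in dilp 2-3,5 brain. For dpr6, each wDah library had 14 to 33 circular reads and each mutant library 1 to 9, and the mean level stood at 0.183 of wDah. The linear reads of dpr6 stood at 0.805 of wDah, and the ratio went from 1.04 to 0.23. The other members lowered over 2-fold were nuf, at 0.325 of wDah, and CG14082, at 0.382, with linear reads at 0.784 and 1.08 of wDah.

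**Figure D5:**
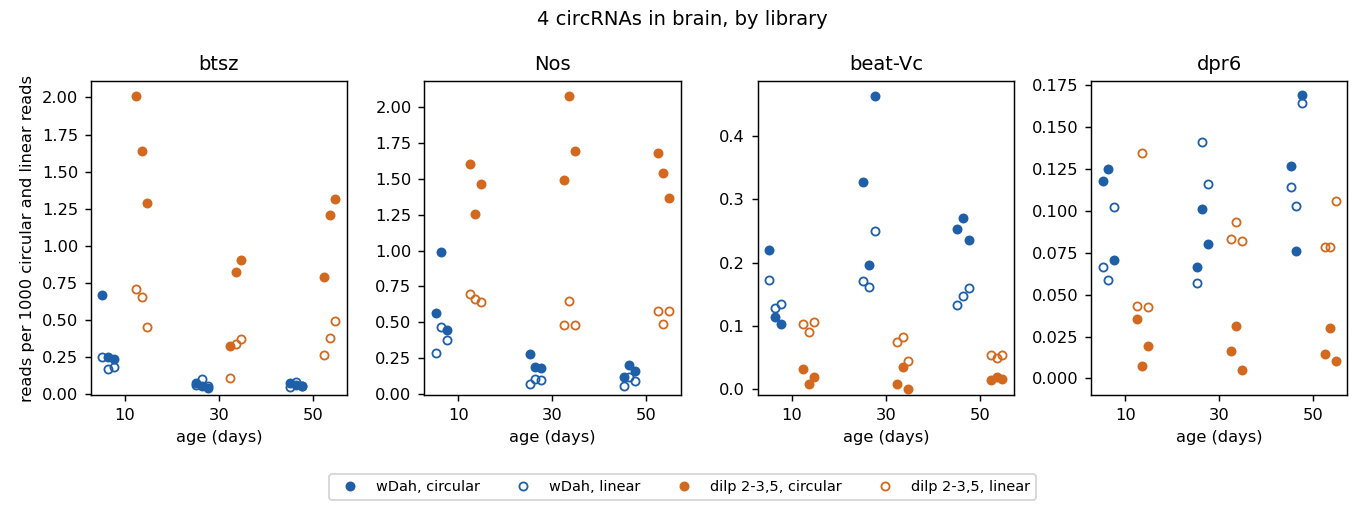
Circular (filled) and linear (open) reads per 1000 circular and linear reads of the library (vertical axis) for the btsz, Nos, beat-Vc and dpr6 rings in each brain library, by age in days and genotype. For btsz and Nos the mutant circular points lie above those of wDah at each age, and for beat-Vc and dpr6 they lie below, with linear reads moving less.

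Over all 113 members, the log2 changes of circular and of linear reads between the genotypes in brain had a Pearson correlation of 0.84. Over 657 others it was 0.39, and both read types come from the same libraries. Members with large changes in both counts weigh on the value of 0.84, such as btsz (2.79 and 1.91), Nos (2.19 and 1.67) and beat-Vc (-3.86 and -1.15). It was not computed without them. Abundance also differed between the sets, so the 2 values are a description and no comparison. The median change of circular reads was 0.13. The ratio was lower in dilp 2-3,5 than in wDah brain for 83 members, in the direction that choosing on wDah would give.

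Outside brain, the genotype was tested at each age, and few members passed. In thorax at day 10, 2 of 74 members tested were higher in dilp 2-3,5 by edgeR, where 0.56% of 536 circRNAs were higher and 1.31% lower. CaMKI had 170, 151 and 194 circular and 396, 387 and 499 linear reads in wDah, and 232, 222 and 217 circular and 420, 323 and 382 linear reads in dilp 2-3,5. The genotypes did not overlap in circular reads, and the ratio differed by 0.57 ± 0.12 on the log2 scale (adjusted p = 0.00527, edgeR). Uhg3, at 3, 5 and 10 against 16, 11 and 17 circular reads, was higher by 1.75 ± 0.47 (adjusted p = 0.0411, edgeR). At day 50, 1 of 66 members was lower, where 0.758% of 396 were lower and 0.253% higher: uex, with 109, 144 and 178 circular reads in wDah and 129, 120 and 100 in dilp 2-3,5, which overlapped, and a difference in ratio that fell by 0.61 ± 0.15 (adjusted p = 0.028, edgeR). None of the 3 calls was made by DESeq2, with adjusted p of 0.992, 0.791 and 0.999. They were also lost when wDah replicate 2 or dilp 2-3,5 replicate 2 was left out, which gave 0 calls each, and without dilp 2-3,5 replicate 3 there was 1. At day 30 in thorax, 0 of 63 members passed, with 0 at an unadjusted p under 0.05 in edgeR and 0 by DESeq2. Of all 361 circRNAs tested there, 0% passed and 15 had an unadjusted p under 0.05 in edgeR.

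In gut 0 of 24, 21 and 24 members passed by edgeR at the 3 ages, with 2 at an unadjusted p under 0.05 at each age and 0 by DESeq2, where at day 30 0.769% of all circRNAs were higher and 0.769% lower, and 0% at the other ages. In fat body 0 of 31, 27 and 30 members passed by edgeR, and 0 by DESeq2. At day 10 3.11% of all circRNAs were higher and 0.847% lower, and 0% at the other ages. An unadjusted p under 0.05 in edgeR was found for 6, 0 and 0 members. Over all circRNAs it was found for 83 of 354, 11 of 264 and 18 of 263. At day 10 in fat body, 29 of 31 members (93.5%) had a higher ratio in dilp 2-3,5, as did 85.3% of all 354 circRNAs tested, with medians of 0.80 and 0.81 on the log2 scale. The CaMKI ring there had 219, 373 and 231 circular reads in wDah and 820, 509 and 694 in dilp 2-3,5, with linear reads of 787, 748 and 600 and of 1119, 927 and 734. Leaving out wDah replicate 2 gave 5 calls in fat body, and leaving out dilp 2-3,5 replicate 2 gave 4.

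In the polysome experiment on fat bodies at day 10, 17 of the 113 members were among the 206 circRNAs listed, and the CaMKI counts of its total RNA are those of the day 10 fat body libraries above. They held 23.7% to 31.6% of the circular reads of polysome libraries and 30.8% to 34.7% of those of total RNA. The mbl ring had 10, 7 and 29 reads in wDah polysomes and 12, 19 and 21 in dilp 2-3,5 polysomes, with 46 circular and 15 linear reads in sum in wDah and 52 and 22 in dilp 2-3,5. Its excess over linear reads was therefore present in polysomes as well. The CaMKI ring had 59, 79 and 66 reads in wDah polysomes and 220, 170 and 78 in dilp 2-3,5 polysomes, against linear sums of 1327 and 1930. Summed over the 17 members, circular reads per linear read ran from 0.218 to 0.531 in polysome libraries and from 0.530 to 1.29 in total RNA, where the ranges met at 0.53. Whether a ring in this fraction is bound to ribosomes was not tested.

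Of factors known from flies or mammals to shape circRNA levels, those listed had only pooled FPKM, without replicate error. The mbl transcripts, whose protein is known to bind its own pre-mRNA and favour its ring in flies, stood at 33.3, 173 and 167 FPKM in wDah brain at days 10, 30 and 50 and at 55.5, 142 and 148 FPKM in dilp 2-3,5 brain. The editing enzyme gene Adar, whose product edits paired repeats, overlapped between brain and thorax and was at 22.6 to 40.01 FPKM in brain and at 4.195 to 6.41 FPKM in fat body. Of the 12 listed factors with a value, brain overlapped the other tissues in 10. The helicase gene mle was higher in every brain group, at 9.46 to 12.4 FPKM against 5.09 to 7.85 FPKM elsewhere. The Argonaute gene AGO2 was lower in every brain group, at 33.4 to 39.5 FPKM against 53.7 to 72.4 FPKM elsewhere. The median host gene of a member had 15.7 FPKM in wDah brain as a mean of the 3 ages, and the median host of another circRNA with at least 50 reads had 19.5 FPKM.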

How the data were processed

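The deposited counts were made by the authors with DCC 0.4.4 from STAR 2.5.2b alignments to BDGP6: circular reads over each backsplice and linear reads at the same positions, kept, per the methods, for circRNAs with a minimum of reads in several samples. How linear reads of both ends were combined is not given in the sources used here. FPKM values were deposited by the authors as 1 pooled value per genotype, tissue and age (HISAT2 2.0.4, StringTie 1.3.0, Cuffdiff 2.2.1), without error, and were used as a description. For a gene with a ring they can include reads within the exons of the ring. Tables of the authors' own beta-binomial tests between groups were not used.

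Members were found by the rule of 50 reads. The members, gene lists and tests were chosen with earlier results of these data known. Each library entered edgeR 4.0.16 (R 4.3.3) as a circular and a linear column with a library term and the sum of both as size, and the quasi-likelihood F test compared their ratio between groups. A circRNA was tested when the fit's libraries held 10 circular reads and 10 linear reads of it or more, with Benjamini-Hochberg adjustment over all of them at 0.05, and the fits were checked on simulated data. Alternatives were DESeq2 1.42.0, other minimums, circular reads alone, a replicate block and leaving out libraries. Brain libraries held 16637 to 38812 circular reads and gut libraries as few as 503. Intervals cover counting error only, and 0 pairs of libraries were identical. The text names the 15 members with most circular reads, the 5 of highest ratio, up to 3 called members by p in each comparison and the 3 nearest each limit, and it says where others were chosen after their values were seen. Figures were drawn with matplotlib 3.10.9.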

Additional observations from a re-analysis of the deposited data

How the results depend on the processing

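The count of 113 members was 122 with a minimum of 30 circular reads and 101 with 100, 107 to 122 without 1 wDah brain library, 20 when circular reads had to be at least 2 times the linear reads, and 73 when the excess had to hold at each age. The rule applied to dilp 2-3,5 brain gave 100. Calls against thorax, gut and fat body were 36 to 50, 34 to 39 and 25 to 29 without 1 library. With circular reads alone they were 103, 104 and 109 with TMM (13, 2 and 7 of these lower in brain) and 111, 111 and 107 at equal totals (0, 0 and 1 lower). Over all circRNAs, 55.7%, 71.3% and 72.9% were higher in brain with TMM and 22.8%, 8.89% and 17% lower, and at equal totals 82.5%, 85.5% and 81% were higher and 6.52%, 4.23% and 8.75% lower. The 9 calls between days 50 and 10 became 4 by DESeq2, 57 with TMM (28 higher, 29 lower), 45 at equal totals (33 higher, 12 lower) and 4 to 14 without 1 library. The 0 calls between days 50 and 30 became 0 to 2, with 2 only without day 30 replicate 3. For genotype, thorax gave 0 by DESeq2, 1 with no minimum, 5 with TMM, 5 at equal totals and 0 to 3 without 1 library, against 3. Fat body gave 2 at a minimum of 30, 2 with TMM, 5 at equal totals and 0 to 5 without 1 library, against 0, and gut gave 1 with TMM and 1 at equal totals. The cause of these changes was not tested. Of 306 settings for single named circRNAs, 283 kept direction and side of the threshold, 23 lost the call and 0 reversed. Same-numbered replicates did not deviate together in any of the 14 comparisons by the limit of a correlation over 0.1 in every pair. Single pairs ran from -0.125 in fat body to 0.208 in gut. With 3 replicates per group, missing this limit cannot show that same-numbered samples were unrelated. Whether they came from the same flies was not tested. With a replicate block the calls were 47, 38 and 27 against thorax, gut and fat body, 9 between days 50 and 10, and 3 for genotype in thorax. Leaving out gut and fat body libraries with over 58 members detected, chosen after seeing the data, gave 42 calls against gut, 37 of them shared, and 0 for genotype in either tissue. Gut libraries held as few as 503 circular reads, and 21 to 24 members met the minimum for a test of genotype there.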
